A study of Mus musculus with 4 samples.

Results

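The peaks of JunB, BATF and IRF4 were examined at the loci of 10 genes that encode AP-1 transcription factors: Junb, Jun, Jund, Fos, Fosb, Fosl1, Fosl2, Batf, Batf3 and Atf3. Members were chosen by gene family and not by their peaks, though with earlier results of these data known. A peak belonged to a gene when its centre lay within 50 kb of any annotated transcription start site (TSS) of that gene in the mouse assembly mm9. Of 103355 peaks in 4 libraries, 133 met this rule. They comprised 31 of 29659 JunB peaks, 19 of 13570 BATF peaks, 42 of 31093 IRF4 peaks from Junb-sufficient cells and 41 of 29033 IRF4 peaks from Junb-deficient cells. No peak fell to more than 1 member gene.

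AP-1 factors are basic leucine zipper proteins that bind DNA as dimers, most of them at TGACTCA or its complement TGAGTCA. The AP-1 site searched for here, TGANTCA, allows any middle base. JUN proteins pair with each other or with FOS, BATF or ATF partners, and BATF has no activation domain of its own and relies on its JUN partner. In activated T cells BATF-JUN dimers also bind beside IRF4 at composite elements in which a half-site for IRF4, GAAA or its complement TTTC, stands at a fixed distance from the AP-1 site. Several of these genes are immediate early genes that respond within minutes to receptor signals.

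Regulatory T (Treg) cells, the Foxp3-expressing CD4+ T cells that restrain immune responses, came as splenic CD4+CD25+ cells from C57BL/6 mice of 6 to 12 weeks. They were activated for 60 h with antibodies to CD3 and CD28 and with IL-2, and bound DNA was recovered by chromatin immunoprecipitation after cutting with micrococcal nuclease and sequenced (ChIP-seq). JunB, BATF and IRF4 were each precipitated from Junb-sufficient cells, labelled Foxp3cre JUNB+/+, and IRF4 also from Junb-deficient cells, labelled Foxp3cre JUNBFl/Fl, whereas the study's methods give Junb fl/fl and Cd4Cre Junb fl/fl. Each of the 4 conditions had 1 library, so no difference between genotypes was tested, and whether cells of several mice were pooled is not given in the sources used here. A Cd4-driven Cre does not delete in Treg cells alone. JunB and BATF were not precipitated from Junb-deficient cells.

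In one label field, the antibody, BATF and IRF4 are swapped between the Junb-sufficient libraries, so names were taken here from the titles and the file headers. The Junb-deficient IRF4 list shared 69.6% of its peaks with the list titled IRF4 and 35.0% with the shorter list titled BATF, and of its first 10% of peaks 95.8% and 86.2%. Read the other way, it covered 65.0% of the list titled IRF4 and 74.8% of that titled BATF, so overlap alone does not settle the names. Tags used for peak calling ranged from 16 to 17.9 M (M standing for mega). Tags that fell in peaks ranged from 1169907 for JunB to 3051302 for Junb-sufficient IRF4. Widths were 151 bp for JunB and 605 bp or slightly more for the others, and the minimum spacing of peaks in a list was 300 and 1210 to 1224 bp, respectively. Every deposited score was 1, so a peak was described by its position and its place in the list, counted from the top and also given in percent of the list's length. The lists ran from peaks that recurred to peaks that did not: 95% of Junb-sufficient IRF4 peaks in the first of 10 equal parts overlapped a Junb-deficient IRF4 peak, compared with 32.1% in the last. Among loci of markers, all 8 of Treg cells had an IRF4 peak in Junb-sufficient cells. These 8 include Cd4 and Cd3e, which are not particular to Treg cells. Of all protein-coding genes, 60.5% had at least 2 such IRF4 peaks, so a peak there says little about cell identity. A JunB peak was present at 7 of the 8 loci, where 64.9% of all protein-coding genes had one. Of 9 loci of markers of other cell types, 6 had an IRF4 peak in Junb-sufficient cells and 6 had a JunB peak. Lyz2 and Csf1r, of myeloid cells, had no peak in any list. Itgam, also of myeloid cells, had 6 JunB, 5 BATF, 9 Junb-sufficient IRF4 and 8 Junb-deficient IRF4 peaks. Peaks do not measure expression, so the identity of the cells was not checked further.

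A JunB peak with a BATF peak and an IRF4 peak over it, sharing at least 1 bp with each, was listed at 6 of the 10 genes. The reference sequence of 201 bp around the centre of the highest-placed such JunB peak of each gene is printed from mm9, on the plus strand, to show which of these sites carry the known binding letters. Distances run from the nearest TSS of the gene to the peak centre, with negative values upstream. Capitals mark matches on either strand to the AP-1 site TGANTCA, to the CRE TGACGTCA, to the composite element with IRF4 (GAAA directly before TGANTCA, or TTTC, 4 bases and TGANTCA), to 2 copies of GAAA spaced by 2 bases, the interferon-stimulated response element (ISRE), and to TGACATCA, the variant site known from the Jun promoter, which was added after the sequences were seen.
Jun, -44.8 kb, chr4:94763596-94763796: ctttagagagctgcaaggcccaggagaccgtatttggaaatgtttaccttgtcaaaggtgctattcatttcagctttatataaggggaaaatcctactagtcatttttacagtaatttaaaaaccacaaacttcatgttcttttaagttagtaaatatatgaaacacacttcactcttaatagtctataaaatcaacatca
Fos, -29.1 kb, chr12:86785682-86785882: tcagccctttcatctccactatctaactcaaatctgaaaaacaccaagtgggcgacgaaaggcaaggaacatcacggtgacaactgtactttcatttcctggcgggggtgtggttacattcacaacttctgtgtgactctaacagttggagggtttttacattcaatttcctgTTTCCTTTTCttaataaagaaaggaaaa
Fosb, -34.4 kb, chr7:19929691-19929891: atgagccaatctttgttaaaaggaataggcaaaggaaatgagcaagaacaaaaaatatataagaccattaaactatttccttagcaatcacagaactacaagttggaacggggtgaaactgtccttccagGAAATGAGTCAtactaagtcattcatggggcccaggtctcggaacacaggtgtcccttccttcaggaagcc
Batf, 19.7 kb, chr12:87047190-87047390: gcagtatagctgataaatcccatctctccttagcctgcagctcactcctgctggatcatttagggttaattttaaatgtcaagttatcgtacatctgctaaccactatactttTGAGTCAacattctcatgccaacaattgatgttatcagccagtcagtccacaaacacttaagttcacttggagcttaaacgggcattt
Batf3, 16.7 kb, chr1:192938906-192939106: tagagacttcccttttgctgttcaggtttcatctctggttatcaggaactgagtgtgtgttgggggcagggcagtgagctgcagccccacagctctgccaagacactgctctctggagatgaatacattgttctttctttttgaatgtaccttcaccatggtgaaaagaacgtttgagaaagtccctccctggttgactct
Atf3, -10.6 kb, chr1:193017744-193017944: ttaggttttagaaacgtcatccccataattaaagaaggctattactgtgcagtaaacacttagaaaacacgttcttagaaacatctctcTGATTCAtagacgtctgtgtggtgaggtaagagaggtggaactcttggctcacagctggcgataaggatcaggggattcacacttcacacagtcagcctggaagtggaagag
The Fosb site alone held the composite element, GAAATGAGTCA. It lies off the middle of the site, and the window around the BATF centre, 112 bp from the JunB centre, did not reach it. The windows of Batf and Atf3 each held a match to TGANTCA without GAAA beside it, TGAGTCA and TGATTCA. That of Atf3 has T as its middle base and so is neither TGACTCA nor TGAGTCA. The window of Fos held an ISRE but no AP-1 site, and those of Jun and Batf3 held none of the 5 motifs.

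At 4 genes an IRF4 peak lay within 1 kb of a TSS in 1 genotype and not in the other. The sequences below are those peaks' centres, without bases annotated as UTR. Those of Jun and Batf are from Junb-deficient cells and lie before the gene. Those of Fos and Fosl1 are from Junb-sufficient cells and have their peak centres in the first coding exon.
Jun, -0.0530 kb, chr4:94718914-94719066: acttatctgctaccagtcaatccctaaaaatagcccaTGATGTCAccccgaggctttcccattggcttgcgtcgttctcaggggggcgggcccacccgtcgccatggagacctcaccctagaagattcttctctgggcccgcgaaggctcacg
Batf, -0.163 kb, chr12:87027356-87027556: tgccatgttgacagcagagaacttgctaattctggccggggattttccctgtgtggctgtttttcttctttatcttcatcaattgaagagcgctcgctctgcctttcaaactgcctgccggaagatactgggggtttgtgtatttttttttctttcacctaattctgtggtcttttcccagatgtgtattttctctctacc
Fos, 0.276 kb, chr12:86815016-86815216: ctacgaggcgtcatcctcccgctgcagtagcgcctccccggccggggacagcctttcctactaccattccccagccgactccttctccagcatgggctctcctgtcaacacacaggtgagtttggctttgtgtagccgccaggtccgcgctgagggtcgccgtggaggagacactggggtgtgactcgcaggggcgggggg
Fosl1, 0.256 kb, chr19:5447951-5448059: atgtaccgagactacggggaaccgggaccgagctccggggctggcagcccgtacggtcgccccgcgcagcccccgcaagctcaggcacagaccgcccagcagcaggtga
No AP-1 site, CRE, composite element or ISRE was found in the printed bases of any of them, but the window of the Fosl1 peak held an AP-1 site among the UTR bases left out. The Jun sequence held TGATGTCA, the complement of TGACATCA, a site of the Jun promoter that is known to bind JUN and ATF proteins. Of all 29033 peaks of the Junb-deficient IRF4 list, 1.77% held it within 100 bp of their centre.

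At the median, the member loci had more peaks than protein-coding genes as a whole, but not more than the related genes counted below. The median member had 3 JunB, 1.5 BATF, 4 Junb-sufficient IRF4 and 4 Junb-deficient IRF4 peaks, and the medians over 22225 protein-coding genes were 1, 0, 2 and 2. A JunB peak was present at 9 of 10 members, where 64.9% of coding genes had one, and a BATF peak at 8 of 10, where 48.9% had one. Fosl2 had no JunB peak, and Jund and Fosl1 had no BATF peak. Jund had 2 Junb-sufficient IRF4 peaks, where 60.5% of coding genes had at least 2. A site of all 3 factors was present at 6 of 10, beside 35.1% of coding genes. These shares are descriptions, since neighbouring genes share peaks and the members were not drawn at random. Batf and Jun had 8 and 7 peaks in the Junb-deficient IRF4 list, where 2.27% of coding genes had at least 8 and 4.69% at least 7. In the BATF list Jun, Batf and Atf3 had 4 each, where 4.8% had at least 4, and in the JunB list Jun and Fosb had 5 each, where 9.24% had at least 5.

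**Figure D1:**
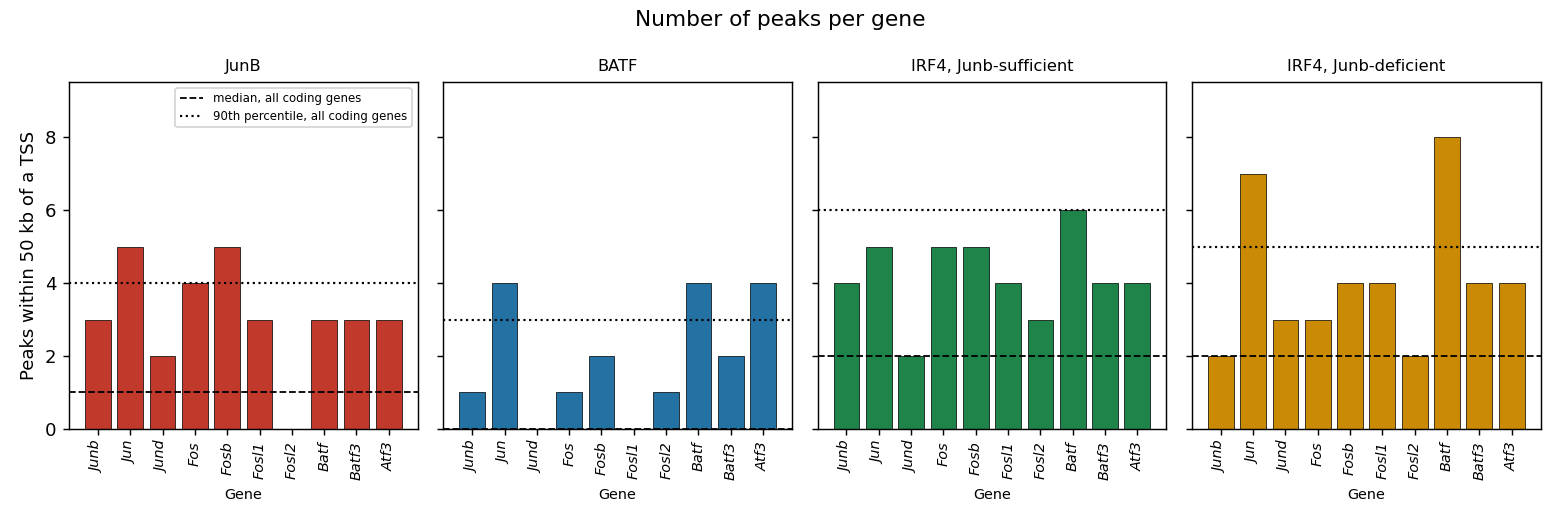
Bars give the number of peaks whose centre lies within 50 kb of a TSS, for each of the 10 genes in each of the 4 libraries, with 1 library per panel. The dashed and dotted lines are the median and the 90th percentile over 22225 protein-coding genes. Batf, with 8 peaks, and Jun, with 7, stand above the 90th percentile of 5 in the Junb-deficient IRF4 panel, and Jun, Batf and Atf3, with 4 each, above that of 3 in the BATF panel.

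Of the 133 peaks, 8 lay within 1 kb of a member TSS (6.02%) and 103 over 10 kb away (77.4%). Over all pairs of a peak and a protein-coding gene within 50 kb these shares were 9.04% and 70.8%. By annotation, 93 were intergenic and 24 were in introns. The nearest protein-coding TSS was that of the member for 83 of the 133. This held for 13 of 13 peaks at Fos, 15 of 15 at Atf3 and 18 of 21 at Jun, but for 1 of 10 at Junb, 0 of 7 at Jund and 1 of 11 at Fosl1. The windows of these last 3 genes held the TSS of 8, 4 and 9 other protein-coding genes. Fosb had 6 such neighbours, and 9 of its 16 peaks were nearest to its own TSS. A peak there is a peak near several genes, and no value of the lists assigns it to 1 of them.

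**Figure D2:**
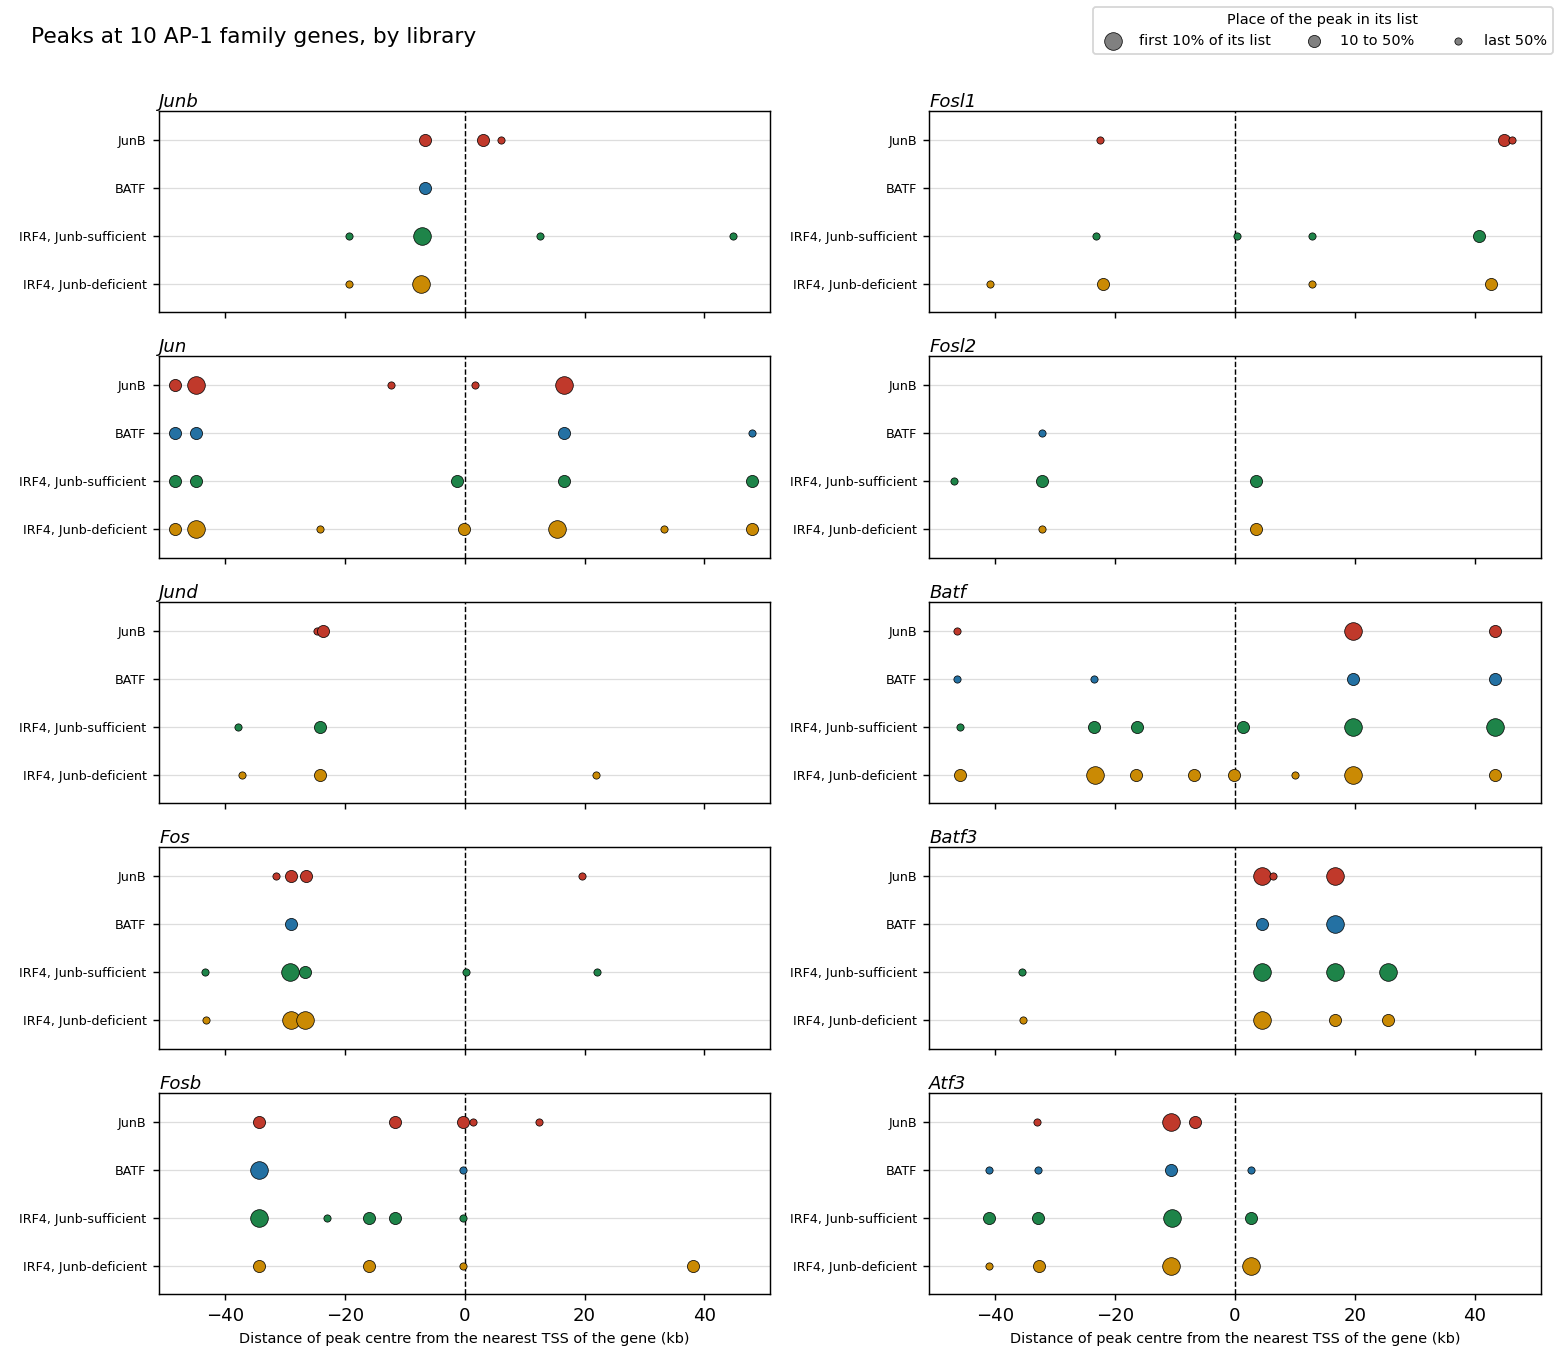
Each panel is 1 gene, the horizontal axis is the distance of the peak centre from its nearest TSS in kb (dashed line at 0, negative upstream), and each row is a library. Large, medium and small points are peaks in the first 10%, between 10 and 50%, and in the last 50% of their list. Columns of points in all 4 rows are seen at Jun, Fos, Fosb, Batf, Batf3 and Atf3, and at Junb, where the JunB peak did not reach the IRF4 peaks, and the row of BATF is empty at Jund and Fosl1.

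Junb encodes the factor deleted in the Junb-deficient cells. Its locus had 3 JunB peaks, 1 BATF peak, 4 IRF4 peaks in Junb-sufficient cells and 2 in Junb-deficient cells. No peak of any list had its centre in the body of the gene, so the lists do not check the deletion. The highest-placed peaks lay between Junb and Hook2. An IRF4 peak at -7.21 kb stood at place 3030 (chr8:87509525-87510137, 9.74%) in Junb-sufficient cells and a peak at -7.26 kb at place 2232 (chr8:87509575-87510179, 7.69%) in Junb-deficient cells. A BATF peak at -6.68 kb (place 5046) overlapped these IRF4 peaks and also a JunB peak at -6.62 kb (place 5205), but the narrow JunB peak did not reach the IRF4 peaks. The 201 bp around the centres of that JunB and that BATF peak held an AP-1 site. The other JunB peaks, at 3.05 and 6.03 kb, overlapped no other peak. Of the 4 IRF4 peaks, those at 12.6 and 44.8 kb, at places 16537 and 24438, had no Junb-deficient counterpart.

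Jun, the founding member of the JUN subfamily, had 5 JunB, 4 BATF, 5 Junb-sufficient IRF4 and 7 Junb-deficient IRF4 peaks, and the most sites of all 3 factors of any member, 3. The first, at -44.8 kb, stood at place 1323 for JunB (chr4:94763621-94763771, 4.46%), 2280 for BATF and 6783 for IRF4 (21.8%), and in Junb-deficient cells at 2271 (chr4:94763402-94764006, 7.82%). The second, near -48.3 kb, stood at 8709 for JunB, 3341 for BATF and 3427 and 2969 for IRF4 in the 2 genotypes. Both were kept and stood higher in the Junb-deficient list, by -14.0 and -0.795 percentage points. The third, at 16.6 kb, stood at place 1950 for JunB (chr4:94702193-94702343, 6.57%), 2722 for BATF and 3491 for IRF4 (chr4:94701977-94702589, 11.2%). No Junb-deficient IRF4 peak overlapped it. A Junb-deficient IRF4 peak at 15.4 kb, with its centre 1137 bp away, stood at place 2618 (chr4:94703118-94703722, 9.02%), and its central window held a composite element. In the Junb-sufficient list no IRF4 peak was at that position.

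A similar exchange was seen at the Jun start site. In Junb-sufficient cells an IRF4 peak lay at -1.21 kb (chr4:94719819-94720431, 42.8%) and in Junb-deficient cells one lay at -0.0530 kb (chr4:94718664-94719268, 30.3%), 1159 bp apart. Another site, at 47.9 kb, carried BATF and IRF4 in both genotypes without JunB, with a composite element in each of the 3 windows. Its nearest coding TSS was that of Mysm1. The IRF4 peaks at 33.3 and -24.2 kb were in the Junb-deficient list alone, at 78.4% and 96.5%. HOMER, the peak caller, keeps peaks of 1 list apart by 1224 or 1210 bp, so it lists 1 of 2 closer summits. Whether both summits carried signal in both genotypes was not tested, since the lists hold no signal.

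Jund, the JUN protein that is most broadly expressed in resting cells, had the fewest peaks of the JUN genes. It had 2 JunB, 2 Junb-sufficient IRF4 and 3 Junb-deficient IRF4 peaks. An IRF4 peak at -24.1 kb, in an intron of Lsm4, was listed in both genotypes at 22.4% and 15.1%. JunB peaks at -23.6 and -24.6 kb flanked it without overlapping it. The remaining IRF4 peaks, at -37.9 kb in 1 genotype and at -37.2 and 22.0 kb in the other, stood between 83.5% and 98.3% of their lists.

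Fos, the immediate early partner of JUN proteins, had 4 JunB, 1 BATF, 5 Junb-sufficient IRF4 and 3 Junb-deficient IRF4 peaks. Its site of all 3 factors, at -29.1 kb, stood at place 8376 for JunB, 3803 for BATF and 2794 for IRF4 (chr12:86785446-86786058, 8.99%), and at 1448 (chr12:86785487-86786091, 4.99%) in Junb-deficient cells. A site at -26.6 kb carried JunB and IRF4 without BATF and stood at 12.2% and 7.36% (chr12:86787866-86788470) for IRF4. A site at -43.3 kb stood at 88.1% (chr12:86771225-86771837) and 62.0% (chr12:86771307-86771911). All 3 kept IRF4 peaks of Fos stood higher in the Junb-deficient list, by a median of -4.79 percentage points, where a negative difference is a higher place. Of kept peaks near coding genes that started within 5 percentage points of each, 12.8 to 27.5% rose at least as far. The IRF4 peak over the first coding exon at 0.276 kb (chr12:86814810-86815422, 60.0%) and one at 22.0 kb (93.1%) were in the Junb-sufficient list alone.

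Fosb, a FOS protein with an activation domain, had 5 JunB, 2 BATF, 5 Junb-sufficient IRF4 and 4 Junb-deficient IRF4 peaks. It was the only member with a peak of every list within 1 kb of its TSS. There the JunB peak lay at -0.370 kb (chr7:19895689-19895839, 43.7%), the BATF peak at -0.338 kb (chr7:19895426-19896038, 95.3%) and the IRF4 peak at -0.348 kb (chr7:19895436-19896048, 54.2%). In Junb-deficient cells the IRF4 peak was kept at -0.337 kb (chr7:19895429-19896033) but stood at 85.8%, the farthest drop of any kept peak at the member loci. The site with the composite element, near -34.3 kb, stood at place 3618 for JunB, 1334 for BATF (chr7:19929373-19929985, 9.83%) and 1131 for IRF4 (chr7:19929375-19929987, 3.64%), and in Junb-deficient cells at 5894 (20.3%). Its nearest TSS was that of Ercc1, a DNA repair gene, with the IRF4 centre at -446 bp from it. Between these sites, an IRF4 peak at -11.6 kb (chr7:19906682-19907294, 23.8%) that overlapped a JunB peak with an AP-1 site had no Junb-deficient counterpart, and one at -16.0 kb without JunB rose from 30.8% to 15.7%.

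Fosl1 and Fosl2 encode Fra-1 and Fra-2, FOS proteins that lack the FOS activation domain. Neither had a site of all 3 factors. Fosl1 had 3 JunB peaks, none at an IRF4 peak, and 4 IRF4 peaks in each genotype, of which 1 pair overlapped, at 12.9 kb by the start of Fibp. The IRF4 peak over its first exon at 0.256 kb (chr19:5447653-5448265) stood near the end of the Junb-sufficient list at 96.3% and had no Junb-deficient counterpart. One at 40.8 kb (chr19:5488163-5488775, 30.2%), by the start of Mus81, also had none. Fosl2 had no JunB peak, 1 BATF peak, 3 Junb-sufficient IRF4 peaks and 2 Junb-deficient ones. Its BATF and IRF4 site at -32.2 kb, nearest to Bre, held an AP-1 site and went from 31.1% (chr5:32406370-32406982) to 58.1% (chr5:32406380-32406984), and its intronic IRF4 peak at 3.46 kb stood at 23.5% and 20.0%.

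Batf had 3 JunB, 4 BATF, 6 Junb-sufficient IRF4 and 8 Junb-deficient IRF4 peaks. Its intronic site of all 3 factors at 19.7 kb stood at place 2144 for JunB (chr12:87047215-87047365, 7.23%), 2464 for BATF and 2623 for IRF4 (chr12:87046985-87047597, 8.44%), and at 949 (chr12:87046992-87047596, 3.27%) in Junb-deficient cells. A second such site, at 43.4 kb and nearest to Mfsd7c, went the other way, from 6.02% (chr12:87070732-87071344) to 16.1%. A pair of sites carried BATF and IRF4 without an IRF4-overlapping JunB peak. The one at -23.5 kb went from 20.4% to 9.65% (chr12:87003873-87004477), and the one at -45.9 kb, nearest to Jdp2, from 69.1% (chr12:86981368-86981980) to 32.4% (chr12:86981417-86982021), the farthest rise of any kept peak at the member loci. Of 5 kept IRF4 peaks at Batf, 4 stood higher in the Junb-deficient list.

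The Batf start site also differed between the lists. An IRF4 peak at -0.163 kb (chr12:87027154-87027758, 21.4%) was in the Junb-deficient list alone, and one at 1.42 kb in an intron (chr12:87028730-87029342, 46.2%) in the Junb-sufficient list alone, with centres 1580 bp apart. That distance, unlike those at Jun, exceeded the minimum spacing of 1210 to 1224 bp within a list. Junb-deficient cells had further IRF4 peaks at -6.86 and 10.0 kb, at 38.8% and 65.4%. None of these 4 peaks overlapped a JunB or BATF peak.

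Batf3, required for a lineage of cross-presenting dendritic cells and expressed in activated T cells, had 3 JunB, 2 BATF and 4 IRF4 peaks in each genotype, and all 4 IRF4 peaks were kept. Its intronic site of all 3 factors, near 4.48 kb, stood at place 2165 for JunB (chr1:192926746-192926896, 7.30%), 1970 for BATF and 793 for IRF4 (chr1:192926469-192927081, 2.55%), and at 343 (chr1:192926454-192927058, 1.18%) in Junb-deficient cells. The site at 16.7 kb stood at place 906 for JunB (chr1:192938931-192939081, 3.05%), 789 for BATF (chr1:192938708-192939320, 5.81%) and 1371 for IRF4 (chr1:192938673-192939285, 4.41%), and at 3776 (13.0%) in Junb-deficient cells. An IRF4 peak with an AP-1 site at 25.5 kb (chr1:192947483-192948095) overlapped neither JunB nor BATF and stood at 6.93% and 15.4%. These are among the highest-placed peaks of the family, with 3 of 4 IRF4 peaks in the first 10% of the Junb-sufficient list.

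Atf3, a stress-induced factor that pairs with JUN proteins and often represses, had 3 JunB, 4 BATF and 4 IRF4 peaks in each genotype, again all kept. The site near -10.5 kb had the highest place of any member site in 3 of the 4 lists. It stood at place 66 of 31093 for IRF4 (chr1:193017368-193017980, 0.212%), 301 for JunB (chr1:193017769-193017919, 1.01%), 1390 for BATF (10.2%) and 159 of 29033 (chr1:193017579-193018183, 0.548%) for IRF4 in Junb-deficient cells. The IRF4 centres of the 2 genotypes were 207 bp apart there. An intronic site at 2.70 kb carried BATF and IRF4 without JunB, and went from 25.5% (chr1:193003981-193004593) to 5.85% (chr1:193004026-193004630). The site at -41.1 kb, likewise without JunB, went from 37.0% (chr1:193048029-193048641) to 61.0% (chr1:193048035-193048639). The site at -32.9 kb, with all 3 factors, stood at 27.8% and 41.7%.

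The peaks of the 4 lists joined into 70 separate sites, of which 13 held a peak of every list. Another 15 held JunB alone, 13 Junb-deficient IRF4 alone, 12 Junb-sufficient IRF4 alone and 9 IRF4 of both genotypes alone, and 5 held BATF with IRF4 of both genotypes. BATF never stood alone: 19 of 19 BATF peaks overlapped a Junb-sufficient IRF4 peak (100%, exact 95% interval 82.4 to 100%), beside 88.5% of the 10128 BATF peaks within 50 kb of any protein-coding TSS. All intervals cover counting error over peaks only. A JunB peak overlapped 14 of the 19 (73.7%, 48.8 to 90.9%), beside 69.9%. Of JunB peaks, 12 of 31 overlapped both BATF and IRF4 (38.7%, 21.8 to 57.8%), beside 34.1%, and 15 overlapped neither (48.4%, 30.2 to 66.9%), beside 47.8%. The shares of JunB peaks were thus close to those near other genes, and the background lay inside each of these intervals. At the 12 JunB peaks with both partners, the centre of the BATF peak was a median of 28.0 bp (2.00 to 112) and that of the IRF4 peak 32.0 bp (1.00 to 170) from the JunB centre, where the median over all 6573 such JunB peaks was 24.0 bp for each.

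The study asked whether IRF4 binding in Treg cells needs JunB. It compared levels of binding, reported them as lowered at a part of the peaks shared by IRF4 and JunB, and tested chosen sites by ChIP-PCR. Here only the presence of listed IRF4 peaks in the 2 genotypes was compared at these genes, which is a different measure. Of 42 Junb-sufficient IRF4 peaks, 28 overlapped a Junb-deficient IRF4 peak (66.7%, 50.5 to 80.4%), and over all 24078 IRF4 peaks near coding genes the share was 65.7%. The kept share followed the place in the list. It was 9 of 9 in the first 10% (100%, 66.4 to 100%, beside 95.1%), 22 of 27 in the first 50% (81.5%, beside 81.4%) and 6 of 15 in the last 50% (40.0%, beside 50.2%). At JunB peaks 12 of 14 were kept (85.7%, 57.2 to 98.2%, beside 76.6%) and off JunB peaks 16 of 28 (57.1%, 37.2 to 75.5%, beside 58.9%). At BATF peaks 18 of 19 were kept (94.7%, 74.0 to 99.9%, beside 81.6%) and off BATF peaks 10 of 23 (43.5%, 23.2 to 65.5%, beside 56.3%). A JunB peak overlapped 14 of the 42 (33.3%, 19.6 to 49.5%), beside 38.5%. Place in the list, JunB and BATF move together at these peaks, and their separate parts in the kept share were not tested. The background lay inside the members' interval in each of these splits.

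**Figure D3:**
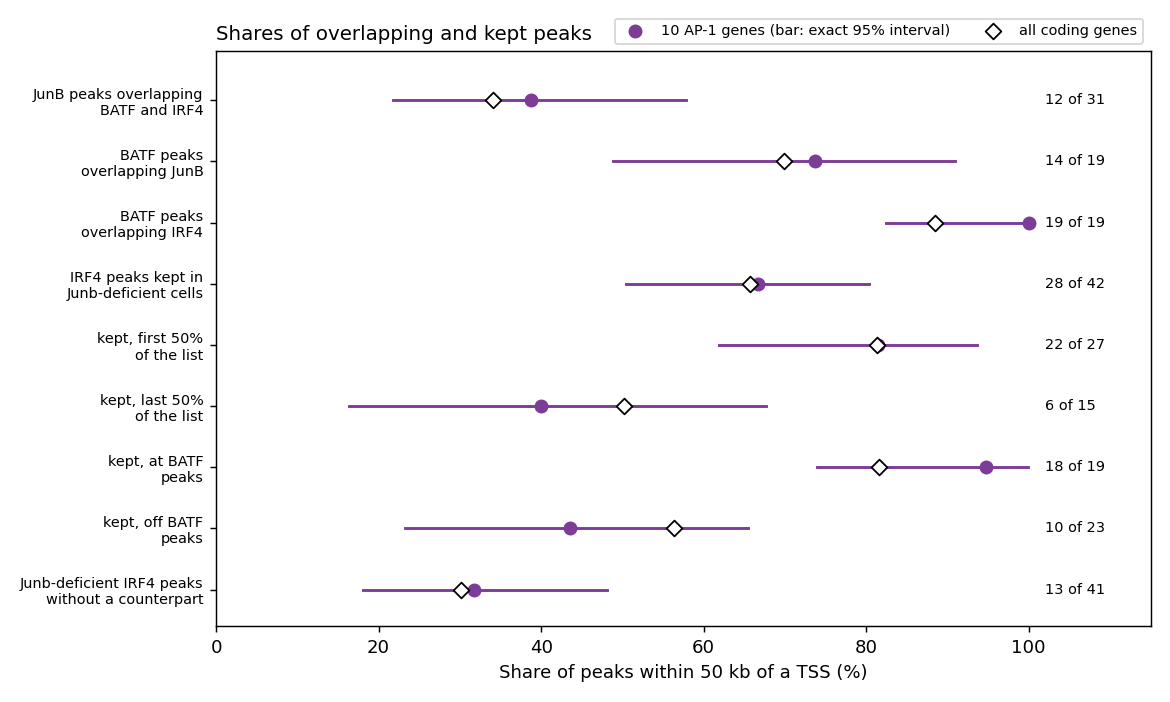
Circles give the share of peaks in percent at the 10 genes with its exact 95% interval as a bar and the count at the right, and diamonds give the same share near all protein-coding genes. Every diamond lies inside the members' interval. The kept share is 18 of 19 at BATF peaks and 10 of 23 off them.

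The 14 IRF4 peaks without a Junb-deficient counterpart stood at a median of 58.6% of the list (11.2 to 96.3%), and 5 of them were in its first 50%. These 5 were the peaks of Jun at 16.6 and -1.21 kb, of Fosb at -11.6 kb, of Fosl1 at 40.8 kb and of Batf at 1.42 kb. JunB peaks overlapped 2 of the 14 and a BATF peak 1. These counts are the peaks not kept in the splits by place, JunB and BATF given above. In each of those splits the background lay inside the members' interval, so they do not set these loci apart. For 6 of the 14 (42.9%, 17.7 to 71.1%) a Junb-deficient IRF4 peak had its centre within 2 kb without overlap, beside 6.02% of the missing peaks near coding genes. This comparison was made after the Jun sites had been seen, and of the 6, 2 were at Jun and 2 at Fosl1. With centres within 2 kb in place of overlap, 34 of 42 were kept (81.0%, 65.9 to 91.4%), beside 67.8%.

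In the opposite direction, 13 of 41 Junb-deficient IRF4 peaks had no Junb-sufficient counterpart (31.7%, 18.1 to 48.1%), and near all coding genes 30.2% had none. They belonged to Jun (4), Batf (3), Fosl1 (3), Jund (2) and Fosb (1), and 7 stood in the first 50% of the list. None of the 13 overlapped a JunB peak (0 to 24.7%, beside 8.46%) or a BATF peak (0 to 24.7%, beside 4.27%). At the TSS, 5 members had an IRF4 peak within 1 kb: Fosb in both genotypes, Fos and Fosl1 in Junb-sufficient cells and Jun and Batf in Junb-deficient cells. The genotypes thus differed at 4 of 5 members with such a peak (exact 95% interval 28.4 to 99.5%), beside 39.7% of 7238 coding genes with one. At Jun and Batf the Junb-sufficient peak lay just beyond 1 kb, at -1.21 and 1.42 kb.

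Kept peaks did not shift together. The place in percent, Junb-deficient minus Junb-sufficient, had a median of -1.08 percentage points over the 28 kept peaks (order-statistic 95% interval -5.17 to 8.60) and ranged from -36.7 to 31.6, with 15 higher and 13 lower in the Junb-deficient list. Over 15823 kept peaks near coding genes the median was 0.206, with quartiles of -9.75 and 11, and 49.0% were higher. The change varied with the starting place: kept peaks within 5 percentage points of 25.5% of the list had a median of 2.99, and those near 88.1% one of -13.1. Among kept peaks that started near the same place, 6.33% rose at least as far as the farthest rise, at Batf. Likewise 7.94% dropped at least as far as the farthest drop, at Fosb. At JunB peaks the median was -0.230 over 12 peaks, beside 1.98, and off JunB peaks -2.77 over 16, beside -2.93. By gene, Fos had 3 of 3 and Batf 4 of 5 higher, whereas Batf3 and Atf3 each had 3 of 4 lower. Both directions were thus found within the family and, as at Batf, Fosb and Atf3, within a single locus.

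**Figure D4:**
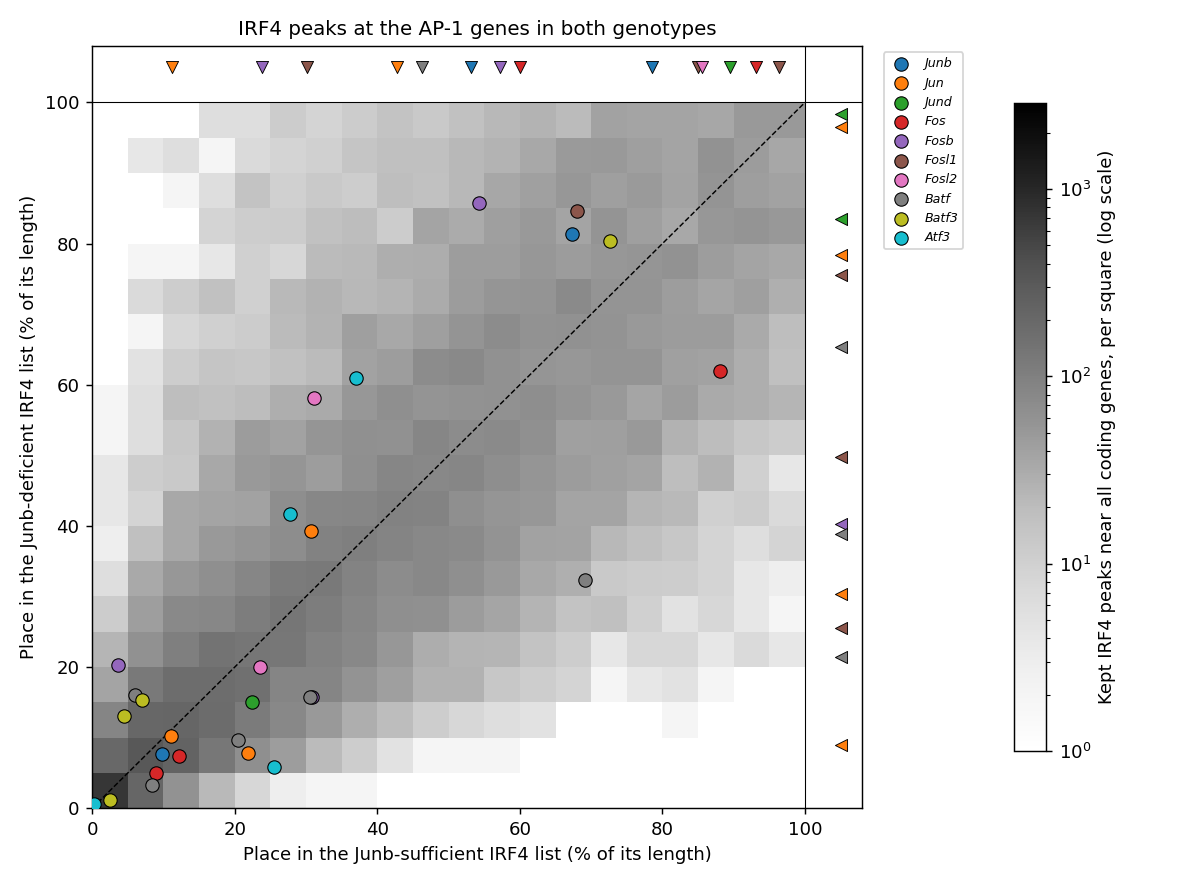
Each circle is an IRF4 peak kept in both genotypes, coloured by gene, at its place in percent of the Junb-sufficient (horizontal) and the Junb-deficient list (vertical), where 0 is the top of a list. Triangles along the top and right edges are peaks of the Junb-sufficient and the Junb-deficient list without a counterpart, and grey squares count all kept peaks near coding genes on a log scale, white being 0 or 1. Circles fall on both sides of the diagonal, with Batf (69.1 against 32.4%) farthest below it and Fosb (54.2 against 85.8%) farthest above.

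The share of peaks with an AP-1 site was within 5 percentage points of that in the whole list for each library, with wide intervals. Within 100 bp of the centre it was found in 10 of 31 JunB peaks (32.3%, 16.7 to 51.4%, against 31.0% of all JunB peaks), 9 of 19 BATF peaks (47.4%, 24.4 to 71.1%, against 43.3%), 12 of 42 Junb-sufficient IRF4 peaks (28.6%, 15.7 to 44.6%, against 32.3%) and 9 of 41 Junb-deficient IRF4 peaks (22.0%, 10.6 to 37.6%, against 21.9%). The composite element contains an AP-1 site and was found in 1, 1, 1 and 2 peaks, at Fosb and Jun, against 2.59, 4.81, 2.86 and 2.32% of the lists. An ISRE was found in 3 JunB peaks (9.68%, against 6.37%), 4 BATF peaks (21.1%, 6.05 to 45.6%, against 9.01%), 4 Junb-sufficient IRF4 peaks (9.52%, against 9.49%) and 5 Junb-deficient IRF4 peaks (12.2%, against 11.7%), and the CRE in none, against 0.317 to 0.916%. A motif match is a description of the letters and was not tested as a site of binding. Member peaks stood somewhat high in the lists, at a median place of 40.9% for JunB, 34.5% for BATF, 30.6% for Junb-sufficient and 25.5% for Junb-deficient IRF4, where peaks near coding genes had medians of 46.4 to 50.2%.

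Related genes were counted in the same way. Other AP-1-related bZIP genes had medians of 4 JunB, 2 BATF, 4.5 Junb-sufficient IRF4 and 4 Junb-deficient IRF4 peaks. In the same order, genes of the JNK and ERK pathways had medians of 4, 1.5, 5 and 5, and the member genes 3, 1.5, 4 and 4. The 20 other AP-1-related bZIP genes had 91 JunB peaks, of which 34 overlapped both BATF and IRF4 (37.4%, 27.4 to 48.1%). They had 113 Junb-sufficient IRF4 peaks, of which 87 were kept (77.0%, 68.1 to 84.4%), and 17 of 104 Junb-deficient IRF4 peaks had no counterpart (16.3%, 9.82 to 24.9%). Near all coding genes 65.7% were kept and 30.2% had no counterpart, and both values lie outside these intervals, which cover counting error over peaks only, with 26 of the 113 peaks from Bach2 alone. The largest number of JunB peaks lay at Bach2, a repressor that maintains Treg cells, with 35 of the 91 JunB peaks and 26 Junb-sufficient IRF4 peaks, followed by Maf with 7 and by Atf6, Nfe2l2, Nfil3 and Crem with 5 each. The 18 genes of the JNK and ERK pathways, the kinases, phosphatases and nuclear targets that control AP-1 expression and activity, had 65 JunB peaks, 20 of them with both partners (30.8%, 19.9 to 43.4%). Of their 88 Junb-sufficient IRF4 peaks 56 were kept (63.6%, 52.7 to 73.6%), and 23 of 79 Junb-deficient ones had no counterpart (29.1%, 19.4 to 40.4%). Among them, Map3k8 had 7 JunB peaks and Elk4 had 6. Every gene of both lists had a peak in at least 1 library, where 60.5% of all protein-coding genes had at least 2 in the Junb-sufficient IRF4 list alone.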

How the data were processed

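Peak lists of JunB, BATF and IRF4 ChIP-seq were read as deposited. Each of the 4 conditions had 1 list. The authors aligned the reads to mm9 with Bowtie2, kept uniquely aligned reads and called peaks in each library by itself with HOMER (4.8 in the labels), with no control library in the recorded command, an FDR of 0.001, at most 1 tag per bp, and a level 4-fold above the surrounding 10 kb. The deposited score is 1 for every peak, so it was not used. Peaks were assigned to genes with the GENCODE annotation of mm9, and overlap meant at least 1 bp. The comparison was with peaks within 50 kb of any of 69976 protein-coding TSSs. Exact binomial 95% intervals cover counting error over peaks only, and with 1 library per condition no test was made between genotypes. All 10 members were named. Of the related lists, the 3 genes with the most JunB peaks (with ties) and every gene without a peak were to be named, of which 1 is not reported here. Peaks given with coordinates were those within 1 kb of a TSS, in the first 10% of a list, among the first 50% of Junb-sufficient IRF4 peaks but without a Junb-deficient one, or moved farthest. Members and lists were chosen with earlier results of these data known. Alternatives were other windows, 1 TSS per gene, the first 50% or an equal number of peaks, exchanged BATF and IRF4 labels, centres within 100 bp, equal widths, and, chosen after seeing the data, centres within 2 kb and nearest TSS. Procedures were tested on simulated data: 0 of 20000 overlaps and 0 of 4000 AP-1 motif calls were wrong. The motif simulation planted only TGAGTCA or TGACTCA among random bases A and C. Calls of the other motifs and matches in real background sequence were not tested. Python 3.11.15, NumPy 2.4.6, SciPy 1.17.1 and matplotlib 3.10.9 were used.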

Additional observations from a re-analysis of the deposited data

How the results depend on the processing

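No paired analysis was possible because each condition had 1 library. Of 60 alternatives, 39 moved a value by less than its error or a count by less than 1.5 times. With windows of 10 kb the loci had 9 JunB, 4 BATF, 9 Junb-sufficient IRF4 and 8 Junb-deficient IRF4 peaks, and with windows of 100 kb 48, 33, 79 and 74. In the first 50% of the lists there were 18 JunB, 11 BATF and 27 Junb-sufficient IRF4 peaks, and with as many peaks as the shortest list 18 JunB, 26 Junb-sufficient IRF4 and 27 Junb-deficient IRF4 peaks. With BATF and IRF4 exchanged, as in the antibody field, there were 42 BATF and 19 IRF4 peaks, and 94.7% of IRF4 peaks were kept. Of Junb-deficient peaks 56.1% then had no counterpart, and the median change of place was -13.5 percentage points. Each comparison of IRF4 between genotypes thus rests on the titles and the file headers. With centres within 2 kb in place of overlap, 81.0% were kept and 17.1% of Junb-deficient peaks had no counterpart. The share of JunB peaks with both partners moved beyond its interval under no alternative run. Each IRF4 list required 19 tags per peak, from 17.3 M and 17.9 M tags used, and its local filter removed 18613 and 16490 putative peaks, respectively. The lists hold no tag counts per peak, so whether a missing peak failed the threshold or the filter was not tested.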
